A study of Homo sapiens with 35 samples.

Results

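The 43 genes described here encode proteins that fold proteins in the endoplasmic reticulum (ER), carry them across its membrane, or remove those that fail to fold, together with 2 sensors of ER stress. They were chosen by name, as the protein-coding entries of 43 listed gene symbols, and all 43 were among the 17999 protein-coding entries that had counts in at least 1 of the 35 libraries. By role, 16 were folding genes, 2 were sensors, 11 belonged to ER-associated degradation (ERAD), and 14 to translocation, a group in which signal peptidase was included.

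The cells were RPMI-8226, a multiple myeloma line in long use, profiled by RNA sequencing, and no introduced genetic change is described for any group. Cells received a pulse of the proteasome inhibitor carfilzomib at 750 nM for 1 h, and were collected on days 1, 2, 4, 6, 8 and 10, with day 0 as the reference. The labels list the pulse for day 0 as well. The methods describe the reference cells as taken before the drug, and they are treated here as unexposed. Each day had 5 replicates of this 1 line. The methods describe subcultures split from a single expanded culture, whereas figure legends speak of independent experiments, and the labels do not settle which holds. If they were subcultures, every test below measures the spread between subcultures and not between separate experiments.

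Libraries held 6519392 to 10962890 counts, of which 78541 to 158752 fell on the 43 members. All 10 plasma cell markers examined had counts, and their summed level was 6623 to 7534 CPM (counts scaled to a normalised total of 1000000 protein-coding counts in each library) on day 0 and 2931 to 3270 CPM on day 1. Most of this sum was JCHAIN, with a mean of 4291 CPM and a range of 1282.5 to 6355 CPM over all libraries. The markers did not share 1 course, since MZB1 ranged from 199 to 724 CPM and XBP1 only from 370 to 498 CPM. The 4 T cell markers summed to 3.22 to 5.21 CPM on day 0 and 0.882 to 1.54 CPM on day 1, nearly all of it from CD3E (mean 2.54 CPM) and CD3G (0.542 CPM), with CD3D and CD2 close to 0. Among B cell markers, MS4A1 had a mean of 9.05 CPM and PAX5 of 2.76 CPM. In bulk RNA, a lower level of a member could come from less of that RNA per cell or from fewer of the cells that carry it, and these cannot be told apart.

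Plasma cells and the myeloma cells derived from them secrete large amounts of immunoglobulin, and depend on a large ER. New chains enter through the SEC61 channel, lose their signal peptide, and are folded by chaperones and oxidised by protein disulfide isomerases. Chains that do not fold are recognised by lectins, pulled back through the HRD1 complex and degraded by the proteasome. The sensors IRE1α (gene ERN1), ATF6 and PERK (gene EIF2AK3) respond to misfolded protein and raise the expression of many of these genes, a programme called the unfolded protein response.

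Promoters are shown for the 10 members in which the ER stress response element was found, a minority of the members. RefSeq promoters (250 bases before to 50 after the start, build GRCh38.p14) were found for 39 of the 43 members. The element was searched on both strands, in its first form as CCAAT, any 9 bases, then CCACG, and in its second form as ATTGG, any 1 base, then CCACG. The first form was in 27 of 35116 promoters (0.0769%) and in those of 7 members, and the second form was in 19 promoters (0.0541%) and in those of 3 other members. HSPA5 and HERPUD1 are given over the whole window, at chr9:125241294-125241593 on the minus strand and chr16:56931892-56932191 on the plus strand, and the others as the stretch around the match. Capitals mark the element, on whichever strand it lies.
HSPA5: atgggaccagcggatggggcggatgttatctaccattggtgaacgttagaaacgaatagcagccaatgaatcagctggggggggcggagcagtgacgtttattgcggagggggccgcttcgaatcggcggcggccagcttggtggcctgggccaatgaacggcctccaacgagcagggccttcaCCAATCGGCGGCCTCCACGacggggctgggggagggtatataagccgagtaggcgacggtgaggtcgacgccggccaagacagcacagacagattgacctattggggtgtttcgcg
HSP90B1: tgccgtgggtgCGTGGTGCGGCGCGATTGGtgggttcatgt
PDIA6: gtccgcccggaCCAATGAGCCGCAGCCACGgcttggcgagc
CALR: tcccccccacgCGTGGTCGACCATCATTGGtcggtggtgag
CANX: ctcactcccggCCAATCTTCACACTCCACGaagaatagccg
SDF2L1: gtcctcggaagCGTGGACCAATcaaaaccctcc
HYOU1: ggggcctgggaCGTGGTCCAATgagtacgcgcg
CRELD2: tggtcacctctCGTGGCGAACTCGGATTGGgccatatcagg
ERO1B: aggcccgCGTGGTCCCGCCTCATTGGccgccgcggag
HERPUD1: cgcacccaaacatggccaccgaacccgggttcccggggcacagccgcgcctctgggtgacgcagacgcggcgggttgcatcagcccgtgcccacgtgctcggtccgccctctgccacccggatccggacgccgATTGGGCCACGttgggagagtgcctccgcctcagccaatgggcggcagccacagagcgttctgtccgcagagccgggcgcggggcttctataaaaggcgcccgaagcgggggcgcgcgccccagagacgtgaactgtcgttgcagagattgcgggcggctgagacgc

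The shorter stretches lie at chr12:103930310-103930350, chr2:10812842-10812882, chr19:12938373-12938413, chr5:179698767-179698807, chr22:21642103-21642135, chr11:119057263-119057295, chr22:49918543-49918583 and chr1:236282172-236282208, in the order printed. The match closest to the annotated start was 66 bases upstream in HSPA5, 117 in HERPUD1, 86 in PDIA6 and 243 in ERO1B. HSP90B1 and HYOU1 each had a further match. CANX had the same match at 9, 151 and 189 bases before 3 annotated starts. HERPUD1 also held the letters TGATGCAA, an element bound by ATF4-type dimers, which were in 0.866% of promoters. The letters TGACGTGG, a site bound by XBP1 and ATF6, were in 0.729% of promoters, and in those of HYOU1, SEC62, SSR3 and SSR4. A match is a run of letters and does not show binding.

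On day 1, most members were at lower levels than on day 0. Of the 43, 38 were lower and 1 was higher (edgeR quasi-likelihood test, adjusted p of at most 0.05), against 27.3% lower and 25.4% higher over all 17999 entries. The median log2 fold change was -0.64 over the members and -0.06 over all entries. For 36 members, every day 1 library lay below every day 0 library, as in 20.1% of all entries. The fall was more than 1 on the log2 scale in 12 members, against 13.2% of all entries. CALR, EDEM3, UBE4A and SEC61B did not pass, and ATF6 was the only member that rose in this fit. In the fit of all biotypes described below, 32 members were lower and 3 higher. The summed plasma cell markers, mostly JCHAIN, also stood lower on day 1 in every library, and their part in the result was not tested.

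**Figure D1:**
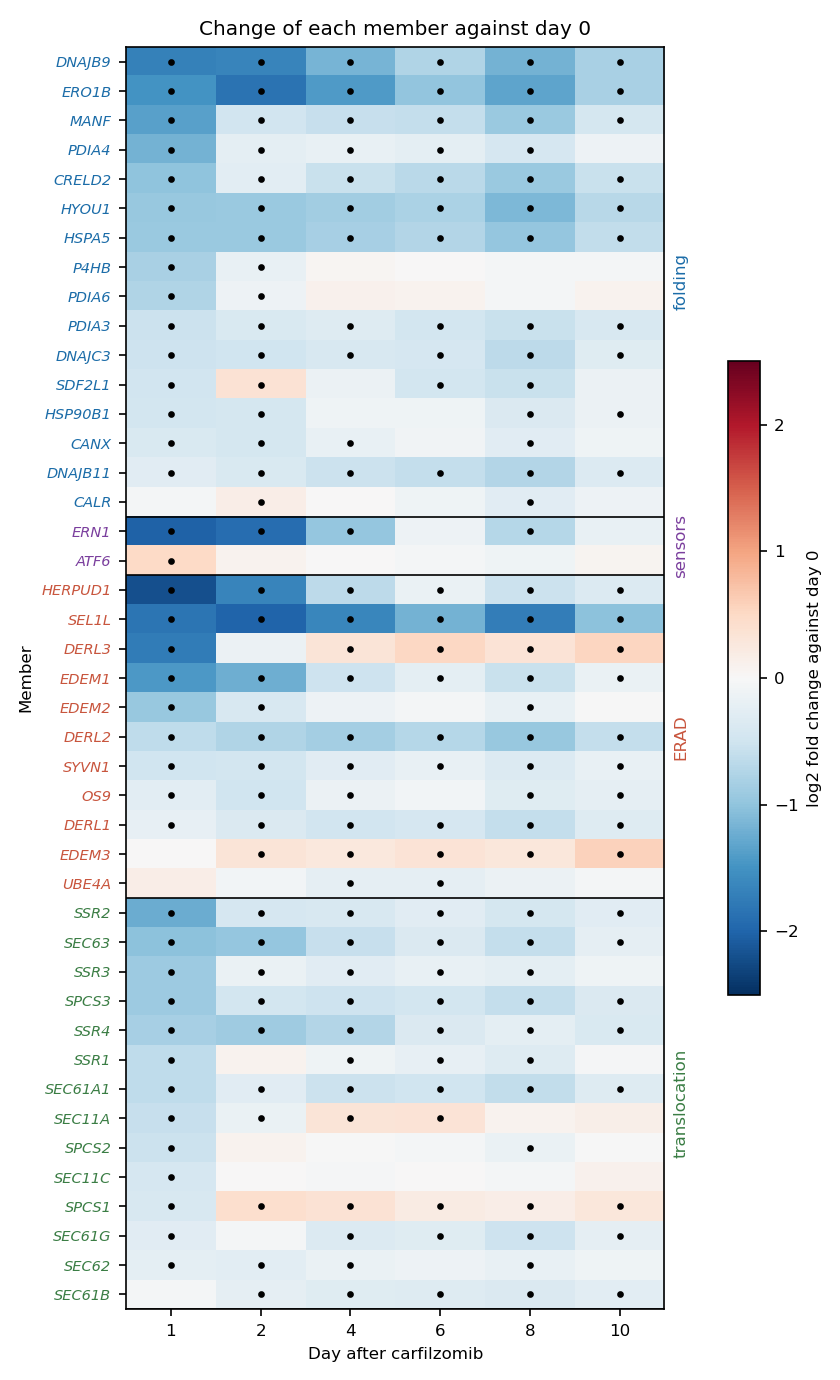
Each cell gives the log2 fold change of a member (rows, in 4 role groups, ordered by day 1) on each day against day 0 (columns); blue is lower, red is higher, and a dot marks an adjusted p of at most 0.05. The day 1 column is blue with a dot for 38 of 43 members, and ATF6 is its only red cell with a dot.

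Among the folding genes, 15 of 16 fell on day 1, with a median log2 fold change of -0.79. HSPA5 encodes BiP, the main HSP70 chaperone of the ER, and was measured at 2424, 2520, 2336, 2692 and 2730 CPM on day 0 and at 1289, 1265, 1381, 1396 and 1351 CPM on day 1. The groups did not overlap, and the log2 fold change was -0.93 ± 0.05 (SE, n = 5 and 5, edgeR adjusted p = 4.4e-20). DNAJB9, a BiP cochaperone, showed the largest fall of the group. Its level was 171, 180, 159, 189 and 179 CPM on day 0, against 52.8, 56.2, 59.9, 55.6 and 46.5 CPM on day 1, a log2 fold change of -1.69 ± 0.09 (edgeR adjusted p = 1e-19). Every day 1 library held less than the lowest day 0 library.

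The other chaperones and cochaperones moved in the same direction by different amounts. HYOU1, an HSP110-type chaperone that assists BiP, fell by 0.95 on the log2 scale (1056 ± 39.2 to 548 ± 6.59 CPM, mean ± SD). DNAJC3 fell by 0.52 and DNAJB11, another BiP cochaperone, by 0.28. HSP90B1, which encodes GRP94, fell by 0.45 and was still at 1277 ± 52.2 CPM. SDF2L1, which works with DNAJB11, was a low-level member (22.9 ± 3.59 CPM on day 0) and fell by 0.47.

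The lectin chaperones behaved differently from each other. CANX, the membrane-bound calnexin, fell by 0.38 on the log2 scale, from 1632 to 1924 CPM on day 0 to 1337 to 1472 CPM on day 1. CALR, its soluble relative calreticulin, was at 918, 926, 803, 946 and 984 CPM on day 0 and at 831, 880, 911, 944 and 871 CPM on day 1, with overlapping groups and a log2 fold change of -0.04 ± 0.05 (edgeR adjusted p = 0.50). Both hold a CCAAT and CCACG element in the promoter, as shown above.

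Enzymes of disulfide formation also fell on day 1. PDIA4 fell by 1.19 on the log2 scale, P4HB by 0.82, PDIA6 by 0.75 and PDIA3 by 0.54. ERO1B, the oxidase that reloads these isomerases in secretory cells, fell by 1.49, from 26.1 ± 1.69 to 9.31 ± 1.01 CPM. The coding entry of PDIA3 was small (60.8 ± 3.76 CPM on day 0), because most counts of this symbol were assigned to a nonsense-mediated decay entry, which held 294 ± 25.4 CPM in the fit of all biotypes. CRELD2 and MANF, both secreted proteins known as markers of ER stress, fell by 1.01 and 1.36.

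The sensors went in opposite directions. ERN1, which encodes the kinase and RNase IRE1α, was at 748, 566, 705, 547 and 529 CPM on day 0 and at 166, 157, 141, 148 and 151 CPM on day 1. The groups lay far apart, with a log2 fold change of -2.02 ± 0.08 (edgeR adjusted p = 1.6e-23). ATF6, which encodes the membrane-bound transcription factor, was at 124, 125, 125, 132 and 116 CPM on day 0 and at 167, 170, 182, 185 and 173 CPM on day 1, with every day 1 library above every day 0 library. Its log2 fold change was 0.49 ± 0.05 (edgeR adjusted p = 2.4e-10). The rise of ATF6 was called on day 1 and on no other day.

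**Figure D2:**
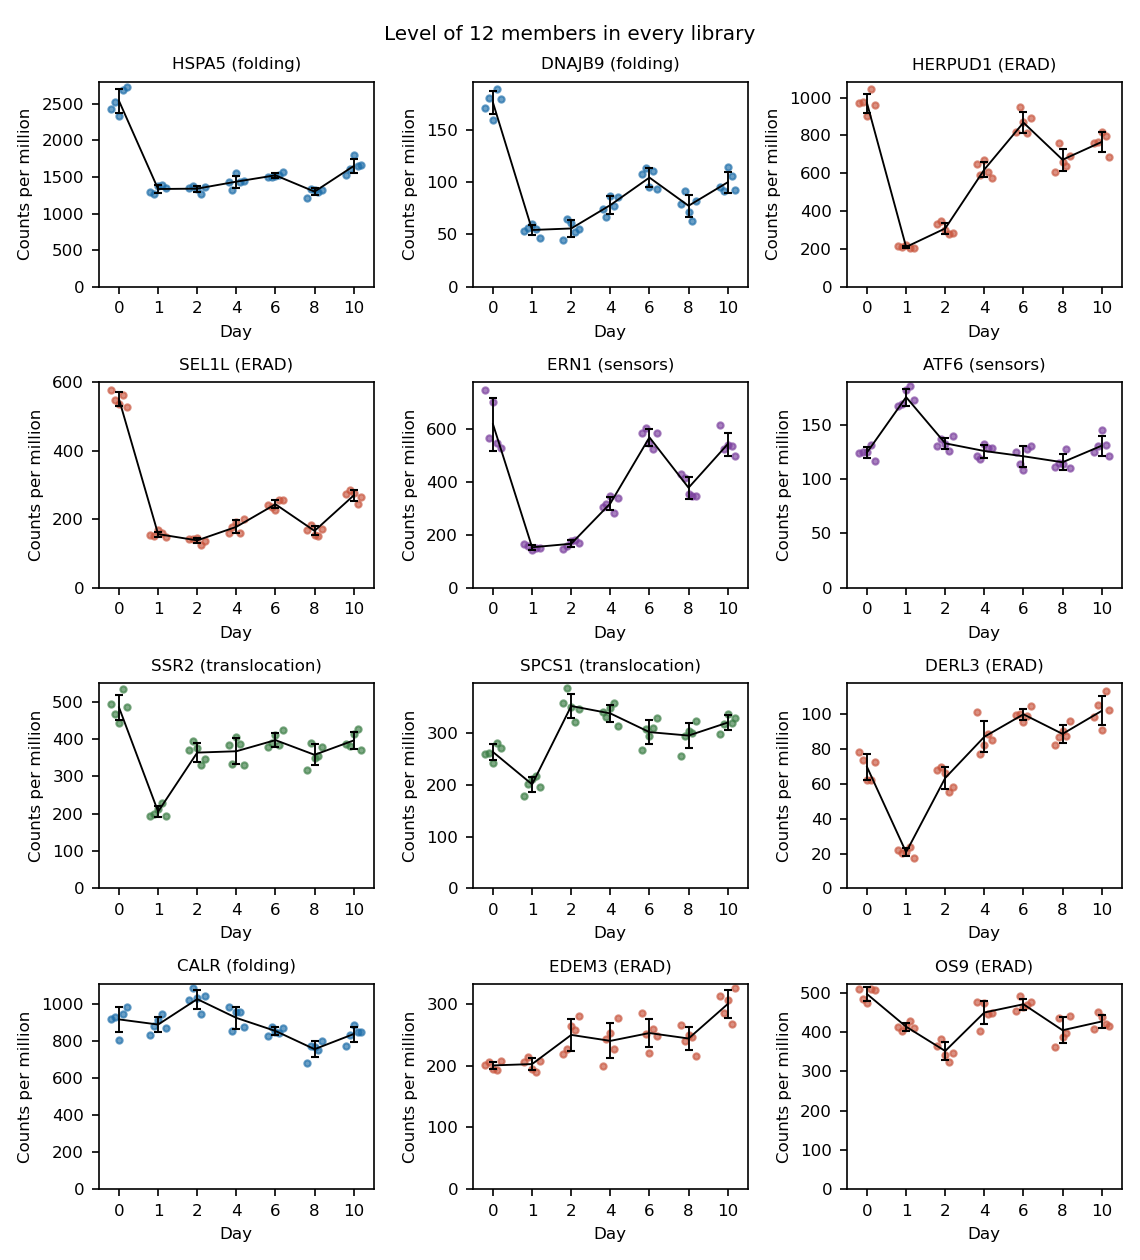
Each panel shows the level of 1 member in CPM (y axis, from 0) by day (x axis), with a point for each of 5 libraries and a line through the means with SD bars. HERPUD1, ERN1 and SEL1L drop to well under 300 CPM on day 1, ATF6 peaks on that day, and DERL3 ends above its day 0 level.

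In ERAD, 9 of 11 members fell on day 1, with a median log2 fold change of -0.64. HERPUD1, an ER membrane protein that helps to assemble the HRD1 complex, showed the largest fall of all 43 members. It was at 972, 978, 903, 1043 and 959 CPM on day 0 and at 214, 211, 220, 205 and 203 CPM on day 1. The lowest day 0 library was far above the highest day 1 library, and the log2 fold change was -2.20 ± 0.06 (edgeR adjusted p = 1.6e-28). SEL1L, the adaptor of the HRD1 complex, went from 578, 548, 538, 565 and 527 CPM to 153, 152, 167, 161 and 149 CPM, a log2 fold change of -1.82 ± 0.06 (edgeR adjusted p = 1.1e-26). The ligase of that complex, SYVN1 (HRD1), fell by a smaller 0.49.

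The derlins, which form part of the exit channel, fell unequally. DERL3, the derlin typical of secretory cells, went from 78.3, 73.6, 62, 62.3 and 72.6 CPM to 21.9, 20.1, 20.7, 23.5 and 17.6 CPM, without overlap. Its log2 fold change was -1.75 ± 0.09 (edgeR adjusted p = 6.9e-21), whereas DERL2 fell by 0.64 and DERL1 by 0.21. The EDEM genes, whose products trim or recognise mannose on misfolded glycoproteins, also split. EDEM1 fell by 1.44 and EDEM2 by 0.96, while EDEM3 was at 201, 206, 195, 194 and 208 CPM on day 0 and at 206, 214, 195, 190 and 209 CPM on day 1, a log2 fold change of 0.02 ± 0.07. OS9, a lectin that delivers glycoproteins to the HRD1 complex, fell by 0.26, and UBE4A, a ubiquitin ligase, had a log2 fold change of 0.17 ± 0.08 that did not pass (edgeR adjusted p = 0.085).

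In translocation, 13 of 14 members fell on day 1, with a median log2 fold change of -0.60. SSR2, a subunit of the translocon-associated protein complex, fell the most. It was at 493, 467, 443, 533 and 486 CPM on day 0 and at 194, 198, 213, 229 and 193 CPM on day 1, with no overlap and a log2 fold change of -1.24 ± 0.06 (edgeR adjusted p = 3.5e-20). The other subunits of this complex fell by 0.92 (SSR3), 0.82 (SSR4) and 0.64 (SSR1). SEC63, which recruits BiP to the channel, fell by 1.03, and its partner SEC62 by 0.24.

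The 3 subunits of the SEC61 channel itself differed in size of change. SEC61A1, the pore, fell by 0.63 on the log2 scale, SEC61G by 0.28, and SEC61B had a log2 fold change of -0.05 ± 0.05 (168 ± 6.12 CPM on day 0 and 163 ± 8.85 CPM on day 1, edgeR adjusted p = 0.46). All 5 genes of signal peptidase fell. SPCS3 fell by 0.90, SEC11A by 0.57, SPCS2 by 0.53, SEC11C by 0.42 and SPCS1 by 0.39.

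Per kilobase of the canonical transcript, the highest levels on day 0 were those of SSR4 (1398 CPM per kb), HSPA5 (648), HSP90B1 (628) and P4HB (599), and the lowest were those of ERO1B (5.23) and DERL2 (6.99). SSR4 also led on day 1 with 792 CPM per kb, and CALR, with 467 CPM per kb, then stood above HSP90B1 with 459 and HSPA5 with 341. Coordinates and lengths came from GENCODE release 44, which is later than the authors' release of the same genome build. The authors describe an adjustment of their counts for gene length. Whether the counts used here carry it is not known, and the order per kilobase depends on it.

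Day 2 was compared with day 1 to ask which members had risen again. Here 22 members rose and 7 fell, against 20.2% higher and 19.4% lower over all entries, and 14 did not pass. The number that fell was 4 without day 1 replicate 3 or without day 2 replicate 4. Of the translocation genes 10 of 14 were higher, with a median log2 fold change of 0.42. Of the folding genes 7 of 16 rose (median 0.11), and of the ERAD genes 5 of 11 rose and 4 fell (median 0.03). A difference between these groups was not tested.

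SSR2 rose by 0.82 on the log2 scale between days 1 and 2, SPCS1 by 0.81, SSR3 by 0.76 and SSR1 by 0.72. Their partner SSR4 did not pass, with 481 ± 34.8 CPM on day 1 and 460 ± 48.0 CPM on day 2. DERL3 rose the most of all members, to 67.7, 69.7, 66.5, 55.2 and 58 CPM on day 2. That log2 fold change was 1.61 ± 0.09 (edgeR adjusted p = 1.9e-19), and every day 2 library was above every day 1 library. Among folding genes, PDIA4 rose by 0.95, MANF by 0.89, SDF2L1 by 0.83 and CRELD2 by 0.74.

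BiP and several of the genes described with it did not pass between days 1 and 2. HSPA5 was at 1354, 1374, 1336, 1274 and 1371 CPM, overlapping the day 1 range of 1265 to 1396 CPM, and HSP90B1 (1282 ± 46.3 CPM), HYOU1 (555 ± 21.3 CPM), DNAJB9 (55.7 ± 7.71 CPM) and DNAJC3 (98.4 ± 4.09 CPM) also did not pass against day 1. SEL1L reached its lowest level, 141, 142, 145, 125 and 137 CPM, which was lower than on day 1 by 0.18 on the log2 scale. That call was lost without day 1 replicate 3 or without day 2 replicate 4, where the log2 fold change ranged from -0.20 to -0.15 over all leave-one-out fits. OS9 fell by a further 0.23 and ATF6 by 0.40, to 133 ± 5.20 CPM.

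Against day 0, 32 members were lower and 4 higher on day 2, where 24.4% and 23.2% of all entries were lower and higher. The median was -0.37 over the members. The lowest log2 fold changes were those of SEL1L (-2.00), ERN1 (-1.90), ERO1B (-1.84), DNAJB9 (-1.65) and HERPUD1 (-1.65). Library size without scaling factors gave 25 lower and 8 higher. The 4 higher members were SPCS1, SDF2L1, EDEM3 and CALR, and the calls of SDF2L1 and CALR were lost without day 0 replicate 3 or without day 2 replicate 2, which left 2. SPCS1 had the largest rise of them, to 358, 387, 350, 322 and 347 CPM from 261, 261, 243, 282 and 272 CPM, with every library above day 0 and a log2 fold change of 0.42 ± 0.06 (edgeR adjusted p = 9.5e-08).

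Between days 2 and 4, 15 members rose and 7 fell (4 without day 2 replicate 2 or without day 4 replicate 5), against 13.9% and 16.7% of all entries. By role, 6 of 11 ERAD genes and 6 of 16 folding genes were higher, and of 14 translocation genes 2 were higher and 3 lower, with no test between the groups. HERPUD1 rose by 1.01 on the log2 scale to 620 ± 40.3 CPM, ERN1 by 0.94 to 319 ± 26.1 CPM, and EDEM1 by 0.70 to 461 ± 30.0 CPM. SEL1L and OS9, which had been lower on day 2 than on day 1, rose by 0.36 and 0.35. SEC61A1 fell back by 0.25 and SEC61G by 0.30.

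**Figure D3:**
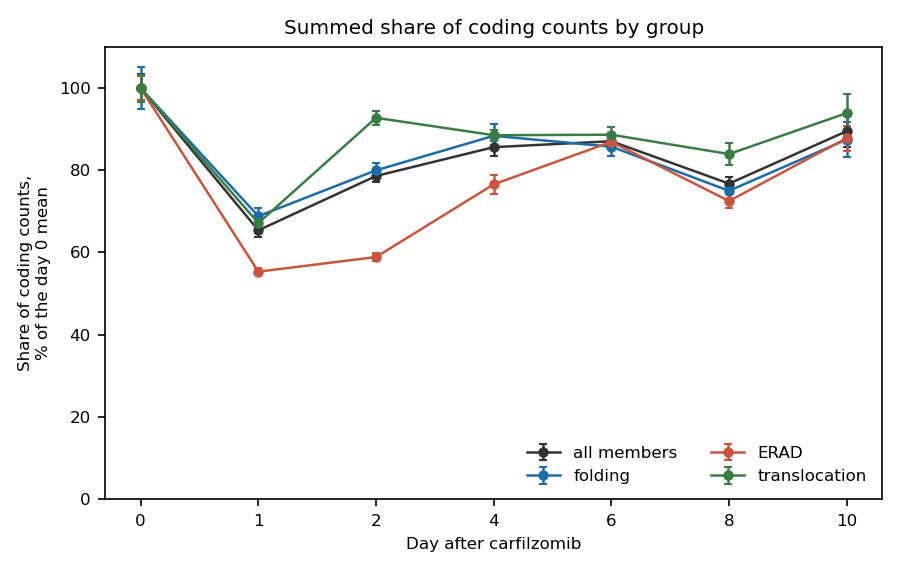
The summed share of protein-coding counts held by all members and by the folding, ERAD and translocation groups is drawn as a percentage of its day 0 mean (y axis, from 0) by day (x axis), with points for the mean of 5 libraries and bars for the SD. Translocation is back at 92.8% on day 2, when ERAD is at 58.9%, and all groups are lower on day 8 than on days 6 and 10.

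The members were also summed as a share of protein-coding counts. All members together held 2.09% ± 0.0720 of these counts on day 0 and 1.37% ± 0.0332 on day 1 (SD, n = 5), which was 65.4% of the day 0 mean. ERAD genes were at 55.3% of their day 0 share on day 1 and at 58.9% on day 2. Folding genes were at 68.8% and 80.0%, and translocation genes at 67.2% and 92.8%. By day 10 the 3 groups were at 87.8%, 87.5% and 93.9%. A share is weighted towards abundant members such as HSPA5 and CANX.

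On days 4 and 6, fewer members differed from day 0. On day 4, 30 were lower and 4 higher, against 20.1% and 19.0% of all entries, with a median of -0.30, and library size without scaling factors gave 23 and 7. On day 6, 27 were lower and 4 higher, against 17.0% and 17.5%, with a median of -0.25. ERN1 was at 570 ± 31.2 CPM on day 6, between 527 and 604 CPM, which overlapped the wide day 0 range of 529 to 748 CPM. SEL1L was still lower than on day 0 by 1.18 on the log2 scale, and it was the only member lower by more than 1. SEC11A was higher by 0.32 on day 4 and 0.34 on day 6, and DERL3 by 0.32 and 0.52.

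Day 8 interrupted the return. Its mean was below those of both day 6 and day 10 in 40 of 43 members and in 30.4% of all entries, a pattern that was noticed first and tested afterwards. Between days 6 and 8, 15 members fell in the edgeR test, against 1.53% lower and 1.03% higher over all entries, and 0 rose, also at an unadjusted p under 0.05 and with DESeq2. In a fit of only these days 9 fell. Between days 8 and 10, 25 rose, against 5.08% higher and 4.97% lower over all entries, and 0 fell by the same 3 readings. When each library was left out, members lower on day 8 than on day 6 ranged from 10 to 15. Members higher on day 10 than on day 8 then ranged from 21 to 26. With all libraries, both steps passed in 13 members, as they did in 178 (0.989%) of all entries. These 13 were HSPA5, HSP90B1, CANX, DNAJB9, DNAJC3, HYOU1, MANF, ERN1, SEL1L, EDEM1, HERPUD1, SEC61G and SEC63.

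ERN1 dropped by 0.59 on the log2 scale between days 6 and 8, to 346 to 430 CPM, and rose by 0.52 to day 10. SEL1L dropped by 0.56 to 166 ± 13.3 CPM and rose by 0.70. HYOU1 reached its lowest level on day 8, 487 ± 18.4 CPM, after a step of -0.32. SSR4, P4HB and UBE4A were the exceptions to the day 8 pattern, and neither step passed in any of them. SSR4 was at 662 ± 30.7 CPM on day 6, 717 ± 90.1 CPM on day 8 and 651 ± 44.8 CPM on day 10. On the same days, P4HB was at 1476 ± 114, 1416 ± 119 and 1415 ± 34.0 CPM. UBE4A was at 144 ± 16.7, 150 ± 18.5 and 162 ± 13.6 CPM. Cell density was adjusted on days 6 and 8 and the medium was replaced every 48 h, so that time since the pulse and culture handling cannot be told apart. Against day 0, 34 members were lower and 3 higher on day 8, where 18.6% and 18.2% of all entries were lower and higher.

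By day 10, 24 members were still lower than on day 0 and 3 were higher, against 15.8% and 16.1% of all entries. Without day 10 replicate 1, 5 were higher, and library size without scaling factors gave 21 lower and 7 higher. The median had come to -0.19. SEL1L remained the lowest, at 274, 286, 278, 243 and 266 CPM, a log2 fold change of -1.03 ± 0.06 (edgeR adjusted p = 4.7e-18), and every library was below every day 0 library. DNAJB9 had a log2 fold change of -0.82, ERO1B of -0.81, HYOU1 of -0.70 and HSPA5 of -0.62. HSPA5 was at 1524, 1616, 1800, 1652 and 1662 CPM, without overlap with day 0.

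EDEM3, DERL3 and SPCS1 were higher on day 10. EDEM3 was at 314, 286, 307, 269 and 327 CPM, all above day 0, a log2 fold change of 0.58 ± 0.07 (edgeR adjusted p = 1.4e-08). DERL3 was at 98.3, 105, 90.8, 113 and 102 CPM, also all above day 0, with 0.54 ± 0.07 (edgeR adjusted p = 9.9e-08). SPCS1 was at 298, 318, 338, 321 and 330 CPM, with 0.28 ± 0.06. The derlins thus ended on different sides of day 0, since DERL1 and DERL2 had log2 fold changes of -0.33 and -0.59, and so did the EDEM genes, since EDEM1 was at -0.17, a call that was lost without day 0 replicate 1, when it was at -0.12.

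Across the 6 later days, 20 members were lower than day 0 on every one, although 4 of them lost the call of at least 1 day when 1 library was left out (SYVN1 on days 6 and 10, HERPUD1 on day 6, CRELD2 on day 2 and EDEM1 on day 10). Over all entries the share lower on every one of these days was 6.89%. The members were the folding genes HSPA5, PDIA3, DNAJB11, DNAJB9, DNAJC3, HYOU1, CRELD2, MANF and ERO1B, the ERAD genes SEL1L, SYVN1, EDEM1, DERL1, DERL2 and HERPUD1, and the translocation genes SEC61A1, SEC63, SSR2, SSR4 and SPCS3. ATF6 and EDEM3 were never lower. CALR, SDF2L1, DERL3, SPCS1 and SEC11A were lower on at least 1 day and higher on at least 1 other. Of the 38 members lower on day 1, 23 were still lower on day 10 (37.0% over all entries lower on day 1), 13 did not pass, and DERL3 and SPCS1 had crossed to higher. The lowest mean fell on day 1 in 23 members, on day 2 in 6, and on day 8 in 12, among them HSPA5 and both DERL1 and DERL2. The day of the lowest mean was not counted over all entries, so these counts are not read as a trait of the members.

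Members with an ER stress response element, of either form, are described beside the other members here, with no test. On day 1, 9 of these 10 members were lower, with a median log2 fold change of -0.84, against 25 of the 29 others with a promoter, with a median of -0.64. The range was wide in both sets, from -2.20 (HERPUD1) to -0.04 (CALR) with the element and from -2.02 (ERN1) to 0.49 (ATF6) without it. On day 10, 6 of the 10 and 16 of the 29 were lower. Among the 87 other pathway genes with a promoter, FICD and XBP1 held the first form.

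Member symbols also had entries of other transcript biotypes, which hold spliced forms that keep an intron, forms marked for nonsense-mediated decay and other processed transcripts. The counting program divides reads between such forms by likelihood, since they share exons with the coding form. In a fit of all biotypes, 57 such entries of 35 members were tested on day 1. Of these, 40 were lower in the edgeR test and 0 were higher, also at an unadjusted p under 0.05, against 28.4% lower and 10.9% higher over 14302 entries that are not protein coding. Their median log2 fold change was -1.30, and that of the coding entries of the same symbols was -0.45. Coding entries stood 0.19 higher in this fit than in the one above, because the scaling factors differ, and values are compared only within it. Of the 43 coding entries of members, 32 were lower and 3 higher in this fit, against 38 and 1 above. EDEM3 and UBE4A passed as higher here, with log2 fold changes of 0.20 and 0.35. DNAJB11, DERL1, OS9, SEC61G, SEC62 and SDF2L1 did not pass here. The share over all coding entries in this fit is not given.

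Retained-intron entries of 30 members were tested, and 24 of them fell on day 1. The share was 33.4% over the 4446 retained-intron entries of all genes with a tested coding entry. In 24 of the 30 the log2 fold change was lower than that of the coding entry, which was also so for 76.2% of those 4446 entries, so that this count is near the background. Over those entries the median was -0.42, and that of their coding entries was 0.25. The retained-intron entry of DNAJB11 fell by 2.46 on the log2 scale, from 35.1 to 50.7 CPM on day 0 to 6.20 to 9.88 CPM on day 1, while its coding entry had -0.09. The entry of HYOU1 also fell by 2.46, with the coding entry at -0.76. For CALR, whose coding entry did not pass in either fit, the retained-intron entry fell by 1.75, from 30.0 ± 2.35 to 8.86 ± 2.82 CPM. HERPUD1 was different from these genes, with log2 fold changes of -2.06 for the retained-intron entry and -2.02 for the coding entry. It was not alone in this, since DERL2 was at -0.50 and -0.45. In DERL3 the retained-intron entry fell by less than the coding entry, at -1.11 and -1.56.

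**Figure D4:**
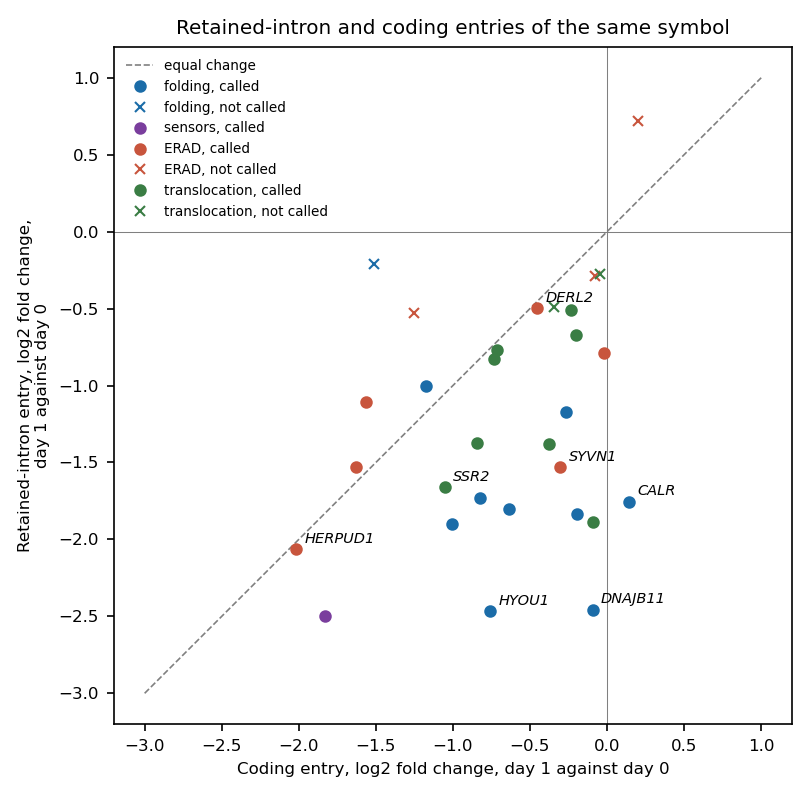
Each point is 1 of 30 members, with the log2 fold change of its coding entry on day 1 (x axis) and of its retained-intron entry (y axis), coloured by role; crosses did not pass the test for the retained-intron entry, and the dashed line marks equal change. Of the 30 points 24 lie below the line, where 76.2% of such entries of all genes also lie, with CALR, DNAJB11 and HYOU1 far below it and HERPUD1 on it.

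As a share of all counts of the symbol, retained-intron entries of DNAJB11 went from 32.6% on day 0 to 8.58% on day 1 and were at 16.6% on day 10. For SYVN1 the share went from 35.9% to 19.1% and then 21.1%, and for CRELD2 from 34.6% to 22.1% and then 25.0%. DERL3 went the other way, from 37.3% to 45.0% and then 42.4%, and DERL2 stayed between 31.2% and 33.5% on days 0, 1, 2 and 10. These shares are estimates of the counting program, and are given without a test.

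Other genes of the same pathways were looked at from lists that do not overlap the members. These lists, like the members, were drawn up with earlier results known. Of 106 such genes, 35 were higher and 48 lower on day 1, with a median log2 fold change of -0.07. Over all entries, 25.4% were higher and 27.3% lower. The other folding genes came closest to the members, with 22 of 30 lower and 3 higher (median -0.53), followed by the oligosaccharyltransferase, with 8 of 12 lower and 3 higher. Of the other ERAD genes, 13 of 21 were higher and 5 lower. Targeting and translocation genes had 10 of 25 higher and 7 lower, UPR regulators 2 of 10 higher and 4 lower, and ER-phagy receptors 4 of 8 higher and 2 lower. Some of these counts were near the shares over all entries. These were the lower targeting and translocation genes, other ERAD genes and ER-phagy receptors, and the higher UPR regulators and oligosaccharyltransferase genes.

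TXNDC5, a disulfide isomerase abundant in plasma cells, fell by 1.85 on the log2 scale, from 3250 ± 213 to 903 ± 36.9 CPM, and was higher than day 0 by 0.38 on day 10. UBE2G2, a ubiquitin-conjugating enzyme of ERAD, rose by 2.06, from 16.4 ± 3.99 to 68.0 ± 10.0 CPM, while UBE2J1, another such enzyme, fell by 1.27. SRP14, of the signal recognition particle, rose by 1.42, while SRPRA, of its receptor, fell by 0.91. XBP1, the transcription factor whose RNA IRE1α splices, was at 441 ± 20.1 CPM on day 0 and 456 ± 33.4 CPM on day 1 and did not pass (edgeR adjusted p = 0.44). RTCB, the ligase that joins the spliced XBP1 RNA, rose by 1.53, FICD, which modifies BiP, fell by 1.94, and EIF2AK3, the third sensor, fell by 1.01.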

How the data were processed

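The authors estimated transcript abundance with Kallisto 0.44.0 against GENCODE release 28 (GRCh38.p12), with adjustment for GC content. They summarised it with tximport in R 3.5.0, with an adjustment for gene length. The deposited values are estimated counts, given as whole numbers for each gene symbol and transcript biotype (84647 entries, 79 biotypes), without normalisation. The library kit was directional.

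Of 19665 protein-coding entries, 17999 had a count and were tested, and 1666 had none. All 35 libraries were fitted with day as a factor in edgeR 4.0.16 (TMM factors, glmQLFit and glmQLFTest, R 4.3.3), with Benjamini–Hochberg adjustment over all tested entries, and a change was called at an adjusted p of at most 0.05. Errors are SE of the log2 fold change or SD of CPM over 5 libraries. The fit of all biotypes used filterByExpr. The method was tested on simulated counts. Of the days, 8 against 6 and 10 against 8 were compared after the levels had been seen.

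The members and lists were chosen with earlier results of these data known, and such counts are not independent support. Members were named by their role group: the 3 highest and 3 lowest changes on days 1 and 10, the highest and lowest on day 2, both sensors, and members called in opposite directions, 32 in all. The other 11 members were added after their values were seen. Of the other lists, XBP1, EIF2AK3 and each list's highest and lowest change on day 1 were named. Alternatives were filterByExpr, RLE factors, library size alone, the replicate number as a block, 2 days only, all biotypes summed, DESeq2 1.42.0, a log2 fold change above 1, and each library left out. Libraries of a day differed by more than sampling noise (chi-square per degree of freedom at least 2.49), so none was a duplicate.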

Additional observations from a re-analysis of the deposited data

Results flagged for a closer look

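Of 308 groups of 5 libraries examined, 12 held a library whose gap to the nearest other library took up more than 0.71 of the range of the group. Chance alone marks about 1 in 20 such groups. EDEM1 had the widest gap, on day 0, with 722 CPM in 1 library and 646 to 651 CPM in the others. On day 0, CRELD2 was at 47.9 CPM in its lowest library and SEC63 at 244 CPM in its highest. On day 1, SYVN1 was at 166 CPM in its highest library, and SSR3 and SEC11C were at 476 and 196 CPM in their lowest, against 530 to 542 CPM and 222 to 230 CPM in the others. On day 8, the highest libraries of CRELD2, MANF and ATF6 were at 42.1, 67.6 and 128 CPM, and the lowest of SEC61A1 was at 413 CPM. On day 10, the highest libraries of ERO1B and SEC61G were at 17.6 and 133 CPM.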

How the results depend on the processing

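Called changes of members numbered 255, counting each member in each comparison with day 0, of day 2 with day 1 and of day 4 with day 2. Of these, 228 were still called without each library in turn and 27 were not, the latter all at most 0.42 in size on the log2 scale and including EDEM2 on day 8, SYVN1 on days 6 and 10 and SSR1 on day 4. No pairing by replicate number was seen, since deviations of same-numbered libraries correlated at a mean of -0.01 to 0.02. Whether the same subcultures were sampled on each day is not settled by these correlations. With a replicate block, 38 members were lower on day 1 and 27 on day 10, and no count of members moved by more than 1.5 times. Requiring a log2 fold change above 1 left 12, 6, 3, 1, 4 and 1 members lower than day 0 on days 1, 2, 4, 6, 8 and 10 and 0 higher on each of these days, 1 higher and 0 lower for day 2 against day 1 and for day 4 against day 2, and 0 either way for the steps around day 8, by construction. At this threshold, the share over all entries is given only for day 1 (13.2% lower). The counts of the later days are therefore not read as a trait of the members. Higher members were 2 on day 1 without scaling factors, with all biotypes summed and in a fit of only those days. They were 8, 8 and 7 on day 2 under the same alternatives, and 7 on days 4 and 10 without scaling factors. A fit of only days 6 and 8 gave 9 lower. When each library was left out, higher members ranged from 2 to 4 on day 2 and from 3 to 5 on day 10, and lower members from 4 to 7 for day 2 against day 1 and from 4 to 8 for day 4 against day 2. Library size without scaling factors shifted the median of expressed entries to 0.12, 0.13 and 0.11 on days 1, 2 and 4, and moved the group medians with it. The folding median was then -0.67, -0.28, -0.25 and -0.26 on days 1, 2, 4 and 10. The ERAD median was -0.33, -0.18, -0.14 and -0.11 on days 2, 4, 6 and 10, and the translocation median was -0.48, -0.067, -0.18 and -0.19 on days 1, 2, 4 and 6. The median of the 2 sensors was -0.65, -0.77 and -0.36 on days 1, 2 and 4 and changed sign to 0.0072 on day 10, and RLE factors gave -0.79 on day 1. Changes of sign among members were confined to values near 0 in the alternatives run. CALR and SEC61B on day 1 were at 0.070 and 0.064 without scaling factors, and SSR1 on day 4 at 0.00045. EDEM3 on day 1 was at -0.018 with filterByExpr, -0.019 with all biotypes summed, -0.013 with RLE factors and with DESeq2, and between -0.011 and 0.038 when each library was left out. With counts of all biotypes as the total, the share relative to day 0 was 68.4%, 82.8%, 88.4% and 78.6% for all members on days 1, 2, 4 and 8, 71.9%, 84.3% and 91.3% for folding on days 1, 2 and 4, 57.9%, 62.1% and 79.1% for ERAD and 70.2%, 97.8% and 91.4% for translocation on these days, and 50.0% for the sensors on day 1. The cause of these differences was not tested beyond the construction of each alternative. Entries of other biotypes numbered 38 to 41 lower. Precision is limited for low members such as ERO1B and SDF2L1, and counts of forms that share exons are estimates.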

Other observations

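Subunits of the oligosaccharyltransferase, which attaches glycans to chains as they enter the ER, moved in different directions on day 1. TMEM258 fell by 1.27 on the log2 scale, from 168 ± 18.2 to 69.2 ± 4.35 CPM, whereas DAD1 rose by 0.48, from 75.3 ± 7.02 to 105 ± 6.45 CPM. Of the 12 subunits, 8 rose between days 1 and 2, against 20.2% of all entries. ER-phagy receptors, which direct pieces of the ER to lysosomes, were also split on day 1, as RETREG3 (listed under its older symbol FAM134C) rose by 0.96 and CALCOCO1 fell by 1.07. SDF2, a relative of the member SDF2L1, rose by 1.13, from 12.1 ± 2.05 to 26.4 ± 2.90 CPM, on the day on which SDF2L1 fell by 0.47.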
